A study of Saccharomyces cerevisiae with 4 samples.

Results

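Regulators of the yeast sulfur system were set against each other: a strain lacking MET28, which encodes a cofactor, and a strain lacking CBF1, which encodes a DNA-binding factor. For each open reading frame (ORF), the value in the met28 deletion minus the value in the cbf1 deletion was taken, after each column had been centred on the median of its non-zero values. An exact 0 was read as not measured, so an ORF entered only with a non-zero value in both columns, which held for 5032 of the 6260 ORFs in the table. Another 561 ORFs had a value in 1 of the 2 columns and 667 in neither.

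The met28 group is a Saccharomyces cerevisiae strain labelled met28 and the cbf1 group one labelled cbf1, each hybridised on 2-colour arrays against wild-type RNA labelled wt+met, where the "met" is not spelled out. Per the labels' protocols, colonies came from YPD plates with the drug G418, the cells were then grown at 30 °C in the defined medium YNB and harvested at an OD600 (optical density) between 0.8 and 1.0, and hot phenol was used for total RNA. The sources used here do not name the strain background, the deletion cassette or any methionine added to the deletion cultures. They also do not say whether both arrays shared 1 wild-type RNA, which would cancel in the difference. At least 2 biological samples of a strain were grown per the labels, yet 1 column of values stands for each. There is therefore no replicate spread, no test and no p-value, every value below has n = 1, and the depth of the measurement is unknown. In bulk RNA, fewer expressing cells and less RNA per cell cannot be told apart.

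In budding yeast the activator Met4 turns on sulfur genes but does not bind DNA by itself. Cbf1, a basic helix-loop-helix protein, binds an E-box in sulfur promoters and at centromeres and brings Met4 to DNA. Met28, a basic leucine zipper protein, joins these complexes and stabilises them on DNA, and Met31 and Met32 are zinc-finger proteins that offer Met4 a further route to promoters. When methionine is short the system supplies sulfur by reducing sulfate, by importing sulfur compounds and by saving sulfur elsewhere.

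The deposited values were taken as log ratios of the deletion strain over wild type, in a log base that is not stated. That direction is likely rather than settled: the dyes are labelled only as Cy3 or Cy5, and it rests on the very low deposited values of MET28 in the met28 column (-1.294) and of CBF1 in the cbf1 column (-0.995). In the columns labelled met31 and met32, which serve below as a background, the gene of the label was less low or not low: MET31 had a deposited -0.32 in met31 and MET32 a deposited 0.012 in met32. All values of the 2 strains below are centred log ratios, and a difference is met28 minus cbf1 on that scale. A difference of 0.3 in either direction was used as the size threshold, which is 2.0-fold if the base is 10 and 1.23-fold if it is 2.

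Most ORFs lay close together in the 2 strains. The median difference was 0.0025, the quartiles ran from -0.0815 to 0.0895, and the robust SD (from the median absolute deviation) was 0.126. There were 176 ORFs at least 0.3 higher in the met28 strain, 3.5% of those compared, and 105 at least 0.3 lower, 2.09%. Either way this is 5.58%, against 1.32% of 5528 ORFs for the column labelled met31 minus the column labelled met32, the other pair of arrays with 1 reference label. The met31 and met32 columns were also narrower, with robust SDs of 0.0519 and 0.0608, against 0.0778 for met28 and 0.1097 for cbf1. The split between the directions moved with the scaling: without centring 259 were higher and 67 lower, and after quantile normalization 143 were higher and 137 lower. Just inside the threshold were ATS1 at 0.3005 and YFR054C at -0.3005, and just outside it YJR154W at 0.2995 and ABF1 at -0.2995.

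**Figure D1:**
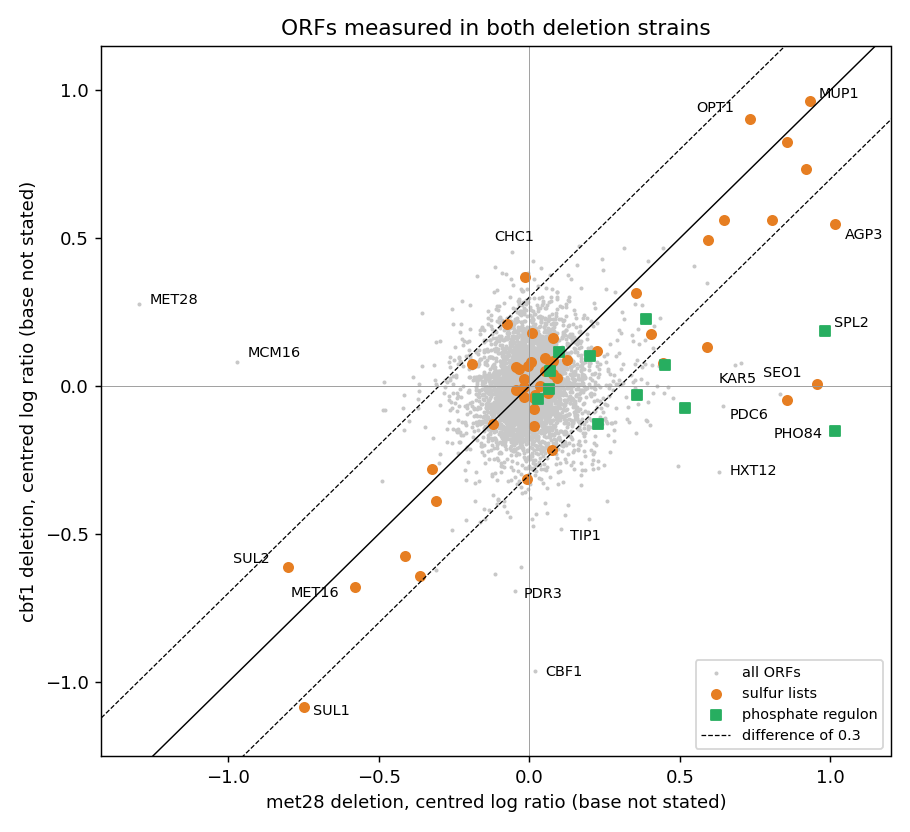
Each point is 1 of the 5032 ORFs, with its centred log ratio in the met28 deletion on the x axis and in the cbf1 deletion on the y axis, sulfur genes in orange and the phosphate regulon in green. The solid line marks equal values and the dashed lines a difference of 0.3. Many sulfur genes lie along the solid line far from the centre, such as MUP1 at 0.932 and 0.963, while PHO84, SEO1 and PDC6 lie at the right with cbf1 values near 0.

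The deleted genes had some of the largest differences. The direction of the log ratio was read from their own low values, so those values are no separate support for it. MET28 was at -1.295 in the met28 strain and 0.278 in the cbf1 strain, and its difference of -1.573 was the lowest of all. That is a 37.5-fold difference if the base is 10 and 2.98-fold if it is 2. CBF1 was at 0.018 in the met28 strain and -0.961 in the cbf1 strain, the second highest difference at 0.979. CBF1 was thus near the middle of the met28 column, whereas MET28 lay above the middle of the cbf1 column. The other regulators measured in both strains were less than 0.3 apart: MET32 was at 0.021 in met28 and -0.032 in cbf1, and MET30, the ubiquitin ligase subunit gene that restrains Met4, at 0.098 in met28 and 0.076 in cbf1. GCN4, the general activator of amino acid synthesis genes, was at -0.048 in met28 and 0.039 in cbf1. MET31 could not be compared, with a deposited 0.598 in met28 and a listed 0 in cbf1, and MET4 was listed at 0 in both.

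Over the 12 sulfur lists, 51 of 59 genes were measured in both strains. Of these, 7 were at least 0.3 higher in met28 (background 3.5%), 1 was at least 0.3 lower (background 2.09%) and 43 were neither, with a median difference of 0.0365 against 0.0025 over all ORFs. The lists were chosen with earlier results of these data known.

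Several sulfate uptake and reduction genes were far below the column medians in both strains. Of the 9 measured, 1 passed the threshold (background 5.58% either way). SUL1, a high-affinity sulfate permease gene, was at -0.746 in met28 and -1.085 in cbf1, a difference of 0.339. Its paralogue SUL2 differed the other way, at -0.802 in met28 and -0.610 in cbf1, a difference of -0.192. So SUL1 had the deeper value in the cbf1 strain. In the met28 strain SUL2 was slightly deeper, but the values were close and no replicate spread was there to rank them. The sizes depended on the scaling: with both columns set to a common robust SD the differences were 0.028 for SUL1 and -0.445 for SUL2. The median of the permease list then turned from 0.073 to -0.209, and that of the 3 measured sulfate activation genes from 0.0995 to -0.117.

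MET16, the reductase gene for activated sulfate, was at -0.577 in met28 and -0.677 in cbf1. MET22, which removes the nucleotide by-product of that step, was at -0.363 in met28 and -0.642 in cbf1, a difference of 0.279. MET3, the ATP sulfurylase gene at the entry of the pathway, differed in the other direction, at -0.189 in met28 and 0.075 in cbf1. MET14, the next kinase gene, had a deposited 0.193 in cbf1 and was listed at 0 in met28. The sulfite reductase genes were close in the 2 strains, with MET5 at -0.412 in met28 and -0.573 in cbf1 and MET10 at -0.309 in met28 and -0.388 in cbf1. The siroheme genes MET1 and MET8, which make the cofactor of sulfite reductase, were 0.043 lower and 0.008 higher in met28 than in cbf1.

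The 5 homocysteine synthesis genes make the carbon skeleton and join it to sulfide. Of these, 1 was at least 0.3 higher in met28 (background 3.5%) and 0 were at least 0.3 lower (background 2.09%). MET2, encoding homoserine acetyltransferase, was at -0.007 in met28 and -0.314 in cbf1, a difference of 0.307. MET17, encoding the sulfhydrylase that forms homocysteine, was at 0.075 in met28 and -0.214 in cbf1, a difference of 0.289 just under the threshold. Both genes were low in the cbf1 column and near the middle of the met28 column. The difference of MET2 fell under 0.3 with columns set to a common robust SD (0.259) or quantile normalized (0.274). HOM3, HOM2 and HOM6, shared with threonine synthesis, lay between -0.084 and 0.048 in the difference.

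None of the 7 methyl cycle genes passed the threshold, and their median difference was -0.0025. MET6, the methionine synthase gene, was at 0.052 in met28 and 0.095 in cbf1, and the S-adenosylmethionine synthase genes SAM1 and SAM2 were 0.037 and 0.033 higher in met28. MET12, a methylenetetrahydrofolate reductase gene, stood furthest from the rest, at -0.072 in met28 and 0.210 in cbf1.

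In transsulfuration, STR3, the cystathionine beta-lyase gene that leads from cysteine back to homocysteine, was high in both strains at 0.856 in met28 and 0.824 in cbf1. The difference of STR3 ranged from -0.228 to 0.326 under other ways of processing, so its closeness is not firm. IRC7, a gene of the same enzyme family, was at -0.012 in met28 and 0.368 in cbf1, and its difference of -0.38 was the only one of the sulfur lists past the threshold on the lower side. CYS3 and CYS4, which make cysteine from homocysteine, were 0.105 and 0.054 higher in met28. STR2 had a deposited 0.213 in cbf1 and was listed at 0 in met28.

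Of 8 glutathione genes, 1 was at least 0.3 higher in met28 (background 3.5%) and 0 were at least 0.3 lower (background 2.09%). That 1 gene is of a degradation complex, and nothing particular to the list is read from its count. DUG2 was at 0.446 in met28 and 0.079 in cbf1, a difference of 0.367, and its partner DUG3 was at 0.648 in met28 and 0.561 in cbf1. The difference of DUG3, 0.087, was 0.301 with columns set to a common robust SD and -0.203 after quantile normalization, so the data do not separate the partners firmly. The third member, DUG1, was at 0.093 in met28 and 0.027 in cbf1. OPT1, a glutathione and oligopeptide transporter gene, was high in both strains, at 0.734 in met28 and 0.903 in cbf1. The difference of OPT1 ranged from -0.358 to 0.112 under other ways of processing. The synthesis genes GSH1 and GSH2 were 0.171 and 0.015 lower in met28.

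Importers of methionine and of S-methyl compounds were above the median in both strains, MUP3 the least so in cbf1. MUP1, the high-affinity methionine permease gene, was at 0.932 in met28 and 0.963 in cbf1, and the lower-affinity MUP3 was at 0.406 in met28 and 0.175 in cbf1. MMP1, the S-methylmethionine permease gene, was at 0.918 in met28 and 0.733 in cbf1. SAM3, the S-adenosylmethionine permease gene, was at 0.356 in met28 and 0.315 in cbf1. MHT1, whose product makes methionine from S-methylmethionine, was at 0.594 in met28 and 0.494 in cbf1, and its paralogue SAM4 at 0.005 in met28 and 0.082 in cbf1. None of these 6 genes passed the threshold. With columns set to a common robust SD, MUP3 (0.339) and MMP1 (0.479) did, and after quantile normalization MMP1 turned to -0.104. The difference of MUP1 ranged from -0.242 to 0.299 under other ways of processing.

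Among permeases for cysteine and other amino acids, 2 of the 3 measured genes were at least 0.3 higher in met28 (background 3.5%), and 4 of the 7 in the list could not be compared. Among genes for other sulfur sources, 1 of the 2 measured was at least 0.3 higher, out of 4 in the list. YCT1, the cysteine transporter gene, was at 0.590 in met28 and 0.132 in cbf1, a difference of 0.458. AGP3, a broad amino acid permease gene, was at 1.017 in met28 and 0.548 in cbf1, a difference of 0.469 that became 0.288 after quantile normalization. AGP1, another broad permease gene, was at 0.016 in met28 and -0.078 in cbf1. TAT1, with a deposited 0.516 in met28, was listed at 0 in cbf1. SEO1, a putative permease gene, had the largest difference of the sulfur lists, at 0.955 in met28 and 0.007 in cbf1. Its difference of 0.948 is 8.86-fold if the base is 10 and 1.93-fold if it is 2. SEO1 had a deposited 0.362 in met31 and was listed at 0 in met32. BDS1, a sulfatase gene, was high in both strains, at 0.807 in met28 and 0.563 in cbf1. Its difference of 0.244 was 0.49 with a common robust SD and -0.11 after quantile normalization. JLP1, a sulfonate dioxygenase gene, had a deposited 0.977 in met28 but was listed at 0 in cbf1, so no difference could be formed.

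Among isozymes of carbon metabolism, PDC6 stood alone. This minor pyruvate decarboxylase, poor in sulfur amino acids, was at 0.857 in met28 and -0.048 in cbf1, a difference of 0.905. Its sister genes PDC1 and PDC5 were at 0.017 and -0.042 in met28 and at -0.133 and 0.064 in cbf1. Neither the enolase genes ENO1 and ENO2 nor the aldehyde dehydrogenase genes ALD4 and ALD6 were more than 0.087 apart.

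**Figure D2:**
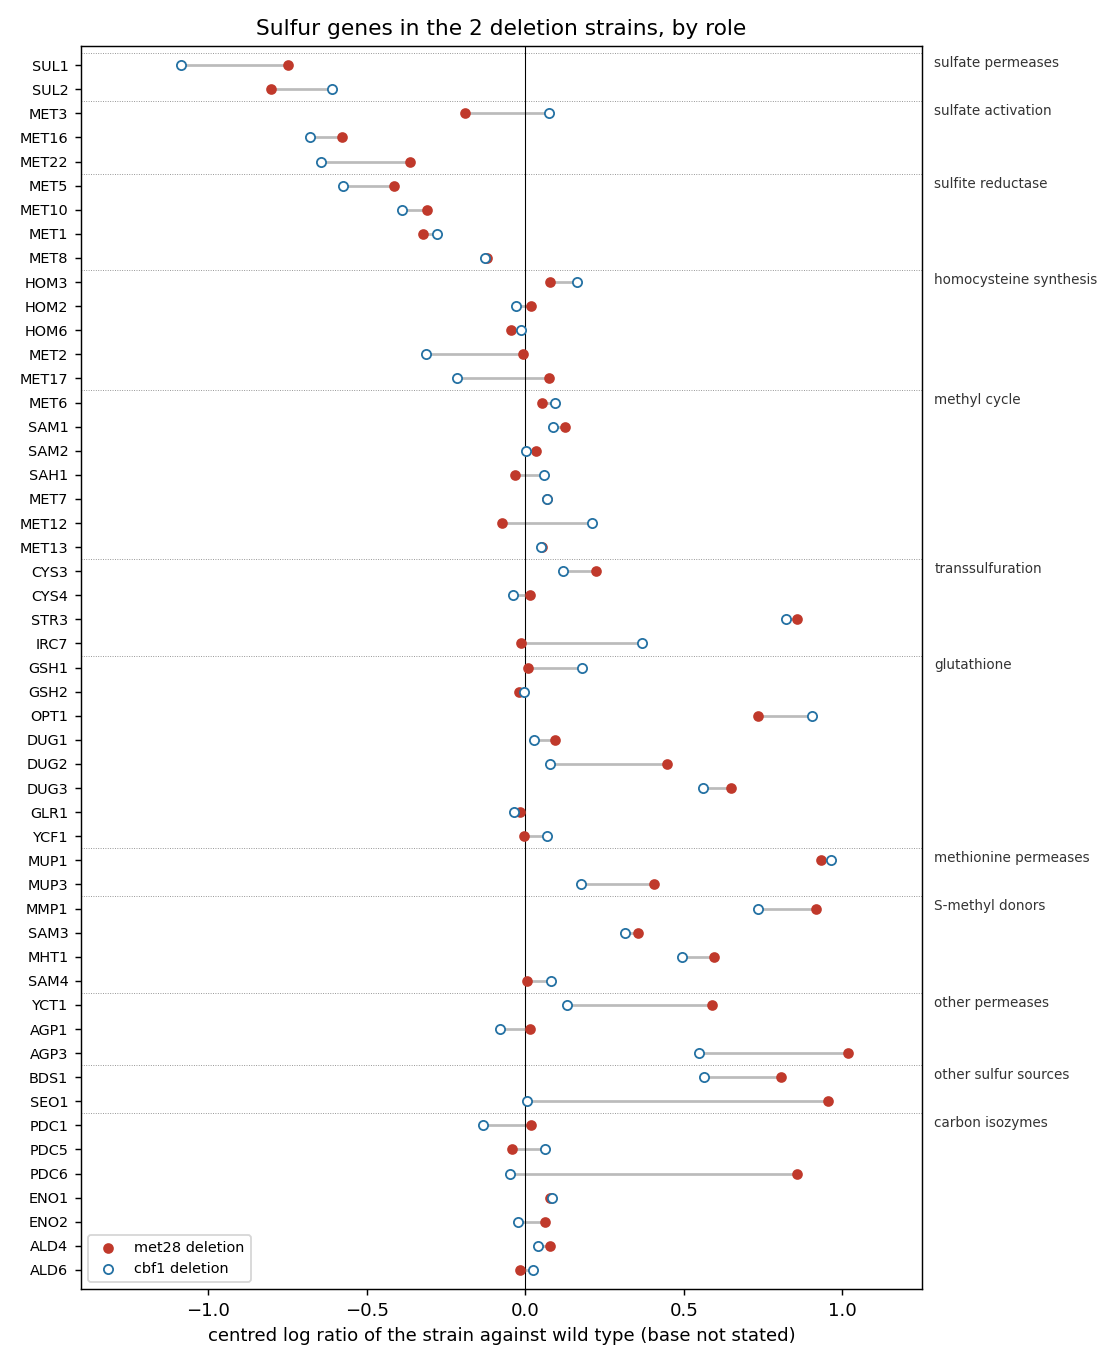
The 51 sulfur genes measured in both strains are listed by role down the page, with the centred log ratio on the x axis as a filled point for the met28 deletion and an open point for the cbf1 deletion, joined by a line. The 8 genes past the threshold are SEO1 (0.948), PDC6 (0.905), AGP3 (0.469), YCT1 (0.458), IRC7 (-0.38), DUG2 (0.367), SUL1 (0.339) and MET2 (0.307). MUP1, STR3 and MET16 have both points far from 0 and close together here, though the differences of MUP1 and STR3 moved with the processing.

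Among phosphate genes, part of the regulon separated the strains. These genes are induced by the activator Pho4, a basic helix-loop-helix protein like Cbf1 that recognises the same core E-box, when phosphate is short. Of 12 measured members of the phosphate regulon (16 in the list), 6 were at least 0.3 higher in met28 (background 3.5%) and 0 were at least 0.3 lower (background 2.09%). The median difference was 0.259 against 0.0025 over all ORFs, and 11 of the 12 differences were above 0. The list's median was 0.293 in met28 and 0.0205 in cbf1. The other 6 measured members were less than 0.3 apart, and this list too was chosen with earlier results of these data known.

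PHO84, the high-affinity phosphate transporter gene, had the highest difference of all ORFs, at 1.015 in met28 and -0.150 in cbf1. This difference of 1.165 is 14.6-fold if the base is 10 and 2.24-fold if it is 2. SPL2, which restrains low-affinity phosphate uptake, was at 0.983 in met28 and 0.188 in cbf1, a difference of 0.795. The acid phosphatase gene PHO5 was at 0.518 in met28 and -0.073 in cbf1, a difference of 0.591. PHO11 and PHO12, also acid phosphatase genes, were at 0.357 and 0.450 in met28 and at -0.030 and 0.072 in cbf1, but the genes are near-identical, so their values may share signal. PHO81, whose product inhibits the kinase that inactivates Pho4, was at 0.230 in met28 and -0.129 in cbf1, a difference of 0.359.

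The other members were closer. PHM6 was at 0.389 in met28 and 0.229 in cbf1, and the polyphosphate synthesis genes VTC1, VTC2 and VTC4 were 0.1, 0.072 and 0.019 higher in met28. VTC3, of the same complex, had a deposited 0.246 in cbf1 and was listed at 0 in met28. In the list of phosphate regulators and other transporters, none of 6 measured genes passed the threshold. PHO4 itself was at 0.007 in met28 and 0.025 in cbf1. PHO80, the cyclin gene that acts against Pho4, was closest to the threshold at 0.3 in met28 and 0.022 in cbf1. On the 2 arrays outside the comparison, PHO84 had a deposited 0.243 in the column labelled met31 and -0.097 in that labelled met32, and PHM6 0.334 in met31 and -0.013 in met32. Among ORFs with a value in all 4 columns, 3 regulon members passed the threshold, because PHO5 and PHO11 are listed at 0 in met32 and SPL2 in met31.

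**Figure D3:**
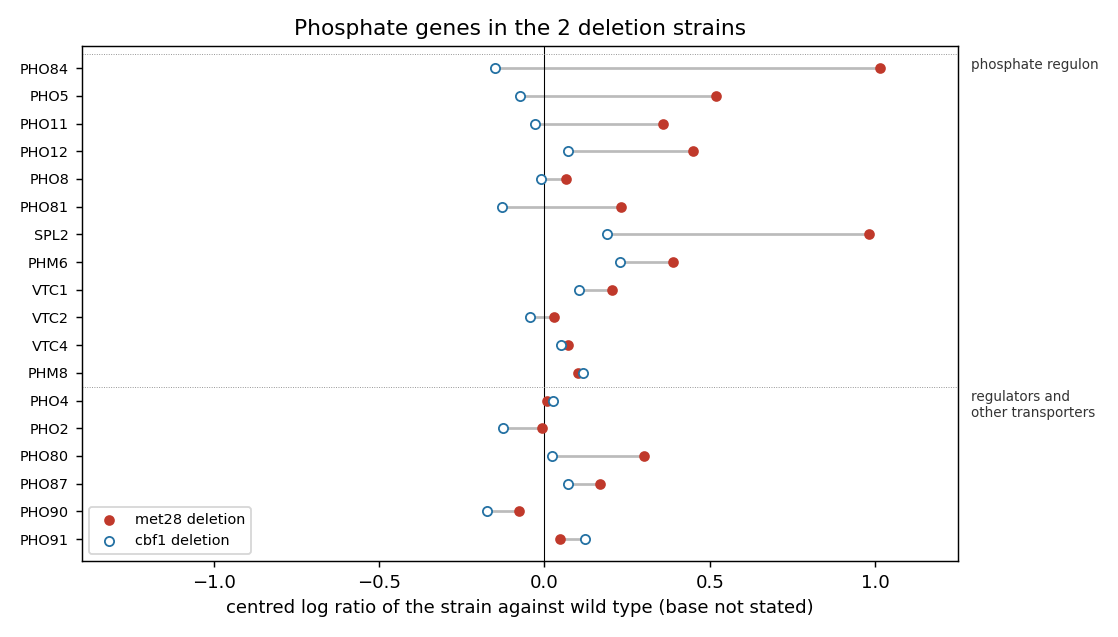
The 18 phosphate genes measured in both strains are shown by their centred log ratio, filled for the met28 deletion and open for the cbf1 deletion. PHO84, SPL2 and PHO5 have the longest lines, with differences of 1.165, 0.795 and 0.591, and PHO4 has its points almost together.

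Outside these pathways, the highest differences came from either strain. HXT12, a gene of the hexose transporter family, was at 0.631 in met28 and -0.288 in cbf1, a difference of 0.919. Its family members HXT9 and HXT11 differed by 0.109 and -0.019, and the ORF next to HXT12, YIL171W, by 0.471. KAR5, which acts in nuclear fusion during mating, was at 0.832 in met28 and -0.025 in cbf1. MIR1, the mitochondrial phosphate carrier gene, was at 0.704 in met28 and 0.078 in cbf1, and CBP2, a mitochondrial splicing factor gene, at 0.683 in met28 and 0.071 in cbf1. These 4 genes were high in the met28 column.

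A further group was set apart by low values in the cbf1 strain. PDR3, an activator gene of drug resistance, was at -0.047 in met28 and -0.690 in cbf1. MSH4, a meiotic MutS homologue gene, was at -0.027 in met28 and -0.612 in cbf1. TIP1, a cell wall mannoprotein gene, was at 0.105 in met28 and -0.482 in cbf1, and LAS21, of membrane anchor synthesis, at 0.2 in met28 and -0.447 in cbf1. IMP21 lay on both sides, at 0.493 in met28 and -0.271 in cbf1.

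On the lower side, MCM16, an inner kinetochore gene, was second to MET28, at -0.970 in met28 and 0.081 in cbf1. Its difference of -1.051 is 11.3-fold if the base is 10 and 2.07-fold if it is 2. None of the other 13 measured inner kinetochore genes passed the threshold (background 5.58% either way), and MIF2 was nearest at 0.28. Nothing particular to the list is read from this count. ACF4, whose role is not well known, was at -0.483 in met28 and 0.015 in cbf1. YAP5, next to MET28 on chromosome IX, was at -0.308 in met28 and 0.148 in cbf1, a difference of -0.456, whereas YIR016W at the opposite flank of MET28 differed by -0.013. The neighbours of CBF1, PTK2 and MNN14, differed by -0.027 and -0.277.

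The remaining low differences came mainly with high values in the cbf1 strain. CHC1, the clathrin heavy chain gene, was at -0.057 in met28 and 0.455 in cbf1. UAF30, of the RNA polymerase I upstream factor, was at -0.089 in met28 and 0.384 in cbf1, and MLH2, a mismatch repair gene, at -0.076 in met28 and 0.380 in cbf1. PET117, a cytochrome oxidase assembly gene, was at -0.172 in met28 and 0.373 in cbf1. The allantoin genes DAL3 and DAL5, for use of a poor nitrogen source, were at -0.116 and -0.108 in met28 and at 0.319 and 0.324 in cbf1. IES6, ATR2, APC9, REF2 and FAF1 were below the median in met28 (-0.255 to -0.195) and above it in cbf1 (0.209 to 0.289).

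**Figure D4:**
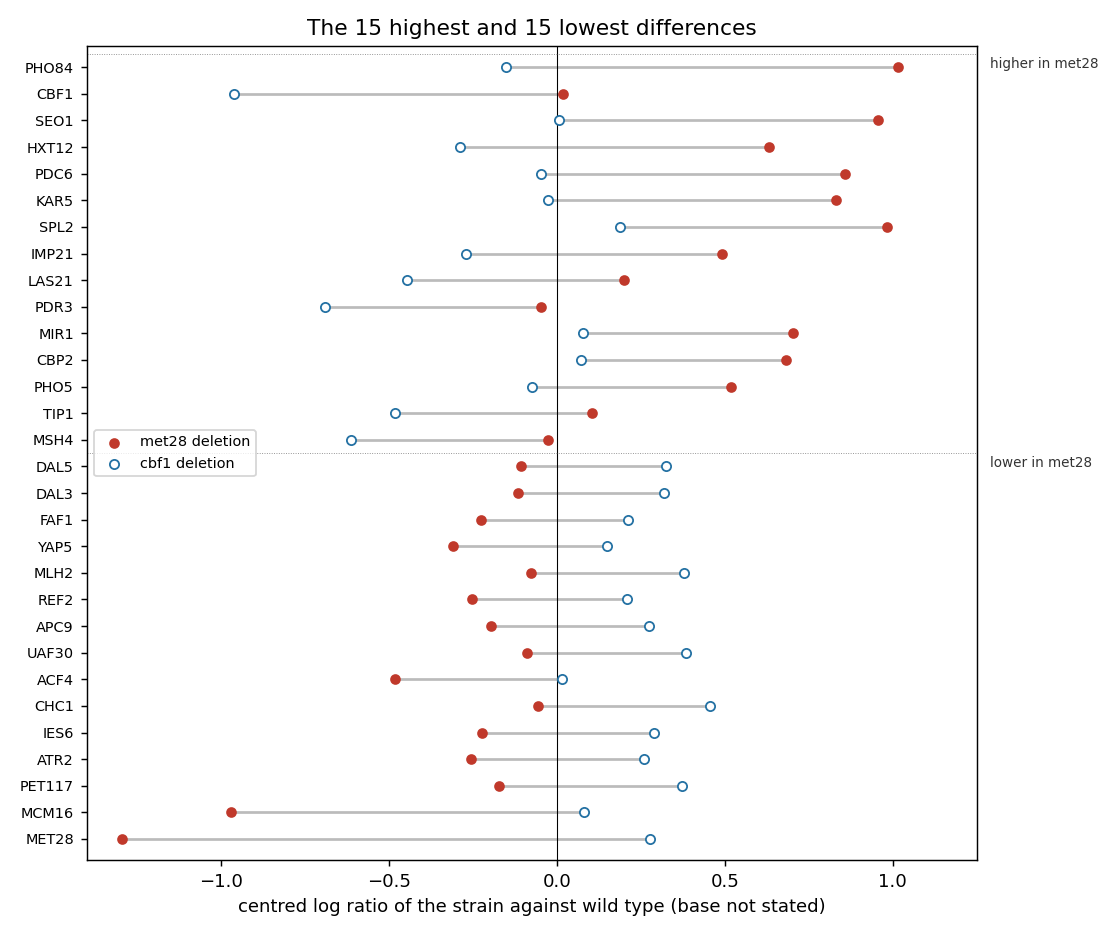
The 15 highest and 15 lowest differences among ORFs with their own gene symbol are shown by the centred log ratio in each strain, filled for the met28 deletion and open for the cbf1 deletion. The highest include genes high in met28, such as KAR5 at 0.832, and genes low in cbf1, such as PDR3 at -0.690, and the lowest include MCM16 at -0.970 in met28.

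Across all 176 higher ORFs, 54 had a size in met28 over 2 times that in cbf1 and 53 the reverse, whichever side of the medians they lay on. Of those where neither size was over 2 times the other, 66 lay on opposite sides of the 2 medians and 3 on the same side. Of the 105 lower ORFs, 26 were carried by met28 in this sense of size and 45 by cbf1, and the remaining 34 were on opposite sides. So neither column alone supplied the differences.

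The larger gene groups of growth and stress are read against the 3.5% of all ORFs that were higher and the 2.09% that were lower, 5.58% either way, and nothing particular to a group is read from its count. Of 134 ribosomal protein genes 0 were higher and 1 lower, RPL41B at -0.126 in met28 and 0.240 in cbf1, and the list's median difference was 0.0185. Among 50 ribosome biogenesis genes, NOP8 was higher (0.425) and UTP13 (-0.398) and NOP16 (-0.332) lower, NOP16 being at -0.297 without centring. Of 64 genes in the mitochondrial ribosomal protein list, MRP8 (-0.307) was lower, at -0.239 with a common robust SD, and also within 0.3 without centring and with zeros kept. None of 32 proteasome genes passed the threshold. In the respiratory chain list of 55 genes, COX18 was higher (0.349) and RIP1 (-0.348) and COX17 (-0.321) lower. RIP1 was at -0.293 with a common robust SD, and COX17 at -0.286 without centring and -0.299 with zeros kept.

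Genes of glycogen and trehalose metabolism had the lowest median difference among lists of 10 or more measured genes, at -0.0755 over 17 genes, with a median of 0.0555 in met28 and 0.140 in cbf1. Only GSY2, a glycogen synthase gene, passed the threshold there, at -0.054 in met28 and 0.264 in cbf1, and it did not with columns set to a common robust SD (-0.291), without centring (-0.283) or with zeros kept (-0.296). TPS2, GLC3 and NTH1 differed by -0.275, -0.251 and -0.247. HSP12, a small heat shock protein gene, was the 1 of 19 heat shock and stress genes past it, at -0.157 in met28 and 0.2 in cbf1.

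In serine and glycine metabolism SER3, the first gene of serine synthesis from a glycolytic intermediate, was at -0.147 in met28 and -0.450 in cbf1, a difference of 0.303 that became 0.207 with a common robust SD and 0.237 after quantile normalization. GLY1, the threonine aldolase gene, differed by -0.297. Among 40 other amino acid synthesis genes, GLN1 was higher (0.304, and 0.294 after quantile normalization) and ARO3 lower (-0.423). None of 17 iron, 16 thiamine, or 10 methionine salvage and polyamine genes passed the threshold. Of 17 mating type and haploid genes, ASG7 was higher (0.447) and SAG1 lower (-0.343). The counts in this paragraph stand against 3.5% of all ORFs higher and 2.09% lower. ASG7 and SAG1 are specific to opposite mating types. STE2 and STE3, the pheromone receptor genes of opposite mating types, differed by 0.085 and -0.087. None of the 5 strain marker genes passed the threshold: URA3, LEU2 and LYS2 differed by -0.174, -0.072 and -0.082, and HIS3 and MET17 by 0.06 and 0.289.

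**Figure D5:**
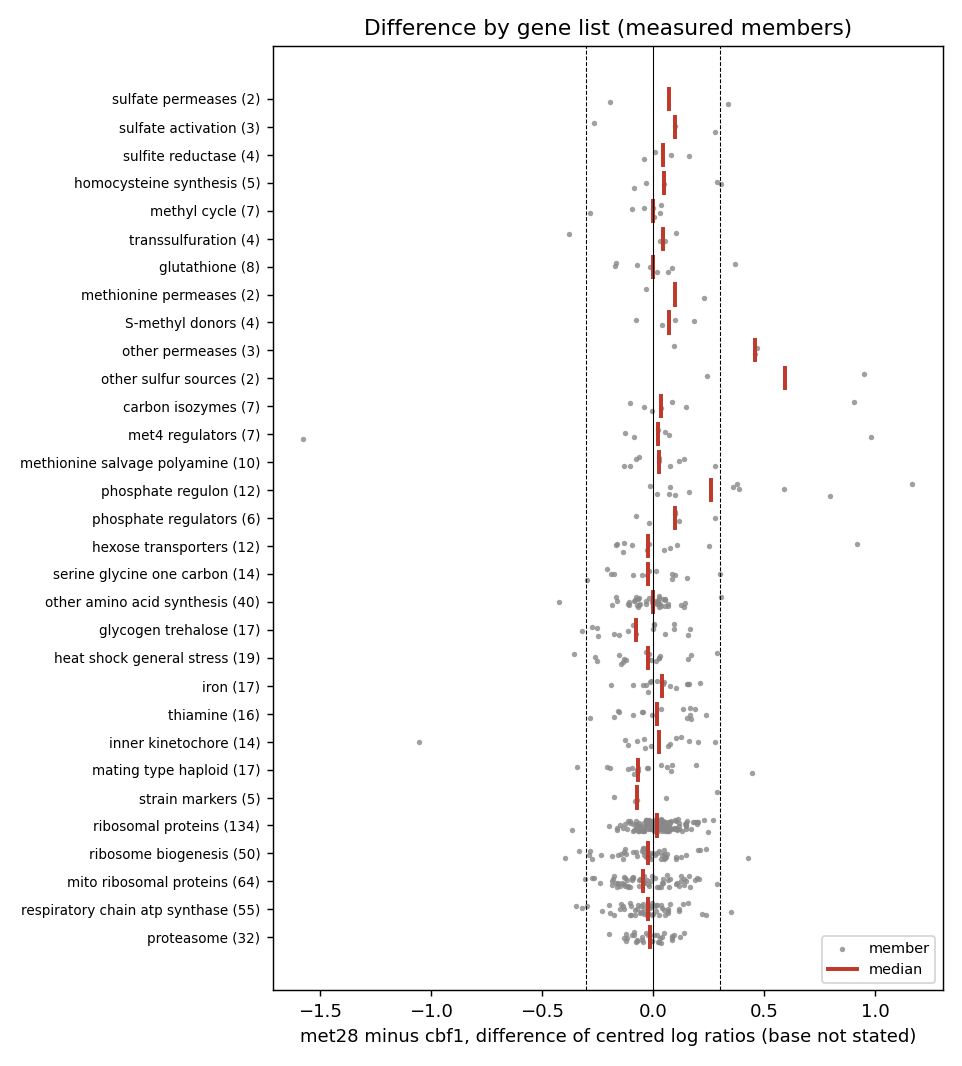
Each row is a gene list with its number of measured members, grey points are the members' differences (met28 minus cbf1), red bars their medians, and dashed lines mark 0.3 in either direction. The medians of other sulfur sources (0.5955, 2 genes), other permeases (0.4575, 3 genes) and the phosphate regulon (0.259, 12 genes) lie furthest right, and the others lie between -0.0755 and 0.0995.

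By position, chromosome medians of the difference lay close together, from -0.031 (VI) to 0.0205 (IX). The share of ORFs at least 0.3 higher ran from 1.97% (II) to 5.78% (IX). The share at least 0.3 lower ran from 0.86% (VII) to 4.8% (III), and these spreads were not tested. Neighbouring measured ORFs were taken in the gene order of RefSeq assembly R64. They passed the threshold together in 7 pairs on the higher side and in 4 on the lower side. Over all ORFs 3.5% were higher and 2.09% lower, and the number of pairs this would give was not computed. Nothing is read from the pair counts. The higher pairs include SEO1 with YAL065C (0.712) and SUL1 with VBA2 (0.365), and the lower pairs MET28 with YAP5. VBA2 was at 0.432 in met28 and 0.067 in cbf1, whereas SUL1 was below the median in both strains. Of the higher ORFs 7.96% and of the lower ORFs 5.71% are not listed in RefSeq, against 3.66% of all ORFs compared. Their share listed at 0 in met31 or met32 was 9.09% and 6.67%, against 7.37% of all.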

How the data were processed

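The deposited table holds a signed score per ORF and strain with at most 3 decimals, taken as a log ratio of the 2 channels. The sources used here do not give the log base, centring, background correction, dye swaps or any averaging. Per the labels' protocols, Cy3 or Cy5 was built into first-strand cDNA. The met28 and cbf1 columns list 0 for 1018 and 877 of 6260 ORFs, and these were left out. Each column was centred on its non-zero median (0.0015 and -0.034) and subtracted, and values were rounded to 3 decimals. Symbols came from RefSeq assembly R64, which lists 5774 of the ORFs, the others keeping systematic names.

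The members, the 31 gene lists and the rules were chosen with earlier results of these data known. Named genes are the Met4 regulators, the 15 highest and 15 lowest differences with a symbol, all sulfur list genes, up to 4 members of each other list with the largest differences, and neighbours of the deleted genes. Exceptions named after their values were seen are pointed out or stand beside such a gene. The differencing was tested on simulated data. A planned comparison by promoter motif was not run, since promoter sequences were not used here. Python 3.11.15, pandas 2.3.3, numpy 2.4.6 and matplotlib 3.10.9 were used.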

Additional observations from a re-analysis of the deposited data

Results flagged for a closer look

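ORFs at least 0.25 from the median in both strains but on opposite sides were singled out, and the difference was not tested. Besides MET28 (-1.573), they were HXT12 (0.919), IMP21 (0.764) and YNL050C (0.647), high in met28 and low in cbf1, and ATR2 (-0.515), low in met28 and high in cbf1.

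ORFs outside the comparison, because 1 of the 2 columns lists 0, held some of the largest values of the table. With a 0 in cbf1, the centred met28 value was 1.038 for YOL162W, 0.976 for JLP1, 0.940 for YPL142C and 0.935 for ARP10. With a 0 in met28, the centred cbf1 value was -1.119 for TVP23 and -1.054 for SPO71. In all, of the 210 ORFs with a value in met28 and a 0 in cbf1, 26 were at least 0.3 above the median in met28 and 4 at least 0.3 below it. Of the 351 with a value in cbf1 and a 0 in met28, 4 were at least 0.3 above and 11 at least 0.3 below the median in cbf1.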

How the results depend on the processing

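At a threshold of 0.2, 445 ORFs were higher and 347 lower in met28, and at 0.5 the counts were 28 and 8, with 3 phosphate regulon genes and 0 of the cysteine and broad permease genes. Without centring 67 were lower, and with zeros kept as values 264 were higher and 88 lower. Quantile normalization left 1 broad permease gene past 0.3, and ORFs with a value in all 4 columns 3 phosphate regulon genes, as fewer were compared. No named gene past 0.3 changed direction under any alternative run; these were the 2 thresholds, no centring, centring on shared ORFs, a common robust SD, quantile normalization, zeros kept, all 4 columns and, added after seeing the data, RefSeq ORFs alone. PHO84 ranged from 1.088 to 1.35, SEO1 from 0.838 to 1.144, PDC6 from 0.743 to 1.073 and MCM16 from -1.238 to -1.016. SUL1 ranged from 0.028 to 0.479. Genes under 0.3 could change sign, as MMP1 (-0.104), BDS1 (-0.11) and DUG3 (-0.203) did after quantile normalization. The promoter motif alternatives were not run. No paired analysis was possible because each strain has 1 column. The number of arrays limits the precision, and without intensities weak spots cannot be told from strong ones.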

Other observations

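These genes were chosen after their values were seen. The allantoin genes did not move as a group: beside DAL3 and DAL5, lower in met28, DAL2 was at 0.058 in met28 and -0.344 in cbf1, a difference of 0.402. DAL7, DAL80, DAL81, the urea amidolyase gene and DUR3 differed by 0.086, 0.112, 0.063, 0.108 and 0.130, and DAL82 by -0.116.

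YOL162W and its neighbour YOL163W had centred values of 1.038 and 0.824 in met28 and were listed at 0 in both cbf1 and met31. NKP2, an inner kinetochore gene like MCM16, was at 0.721 in met28 and listed at 0 in cbf1.

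Several values left out of the comparison come from 1 stretch of chromosome IV, from YDR084C to YDR106W. Of its 25 ORFs, 6 had a value in 1 of the 2 columns, and 5 of these had a size of at least 0.5: TVP23, YDR095C, STE5, SPO71 and ARP10. Of the 561 such ORFs among all 6260, 18 reached that size. The stretch was drawn after these values were seen, with TVP23 (YDR084C) and ARP10 (YDR106W) as its ends, so nothing is read from its counts. The cause was not tested.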
